A study of Mus musculus with 10 samples.

Results

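Lipoxygenases and prostaglandin enzymes turn polyunsaturated fatty acids into signalling lipids and, in the epidermis, into building blocks of the water barrier. The 8 genes described here were taken by name from the deposited tables of mouse skin RNA: the lipoxygenase genes Alox12b, Aloxe3, Alox12, Alox12e and Alox8, the cyclooxygenase genes Ptgs1 and Ptgs2, and the prostaglandin E synthase gene Ptges. All 8 were found among the 9779 genes that both tables hold, and 6 passed the filter on low counts, which kept 5245 genes. Alox12 and Ptgs2 stayed under that filter.

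RNA came from ear skin of C57/Bl6 mice aged 6 to 8 weeks. The benzamil group (n = 4) received topical imiquimod with benzamil for 6 days. Imiquimod activates a Toll-like receptor and is used to bring about an inflammation resembling psoriasis, and benzamil is a relative of amiloride that closes epithelial sodium channels. The DMSO group (n = 4) received imiquimod with the solvent DMSO, and a further group was untreated (n = 2). Both treated groups thus carry imiquimod, and in DMSO over untreated the imiquimod and the solvent cannot be told apart. Ear skin is the labelled tissue of all libraries, but the design text names back skin for the untreated control, so body site and treatment cannot be told apart in comparisons with untreated skin. Nothing in the labels ties each replicate to its own animal, so the p-values rest on a spread among samples that may be technical.

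Lipoxygenases add oxygen to a fatty acid at a fixed carbon. In the upper epidermis the enzymes encoded by Alox12b and Aloxe3 act one after the other on the linoleate of acylceramides, a step needed to build the lipid envelope of the cornified layer, and loss of either gene in mice or people damages the skin barrier. The enzymes encoded by Alox8 and Alox12 act mainly on free arachidonate. Cyclooxygenases take arachidonate to prostaglandin H, and the Ptges product takes that on to prostaglandin E, a mediator of redness, swelling and pain.

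The libraries were shallow. They held between 138440 and 375455 reads in the benzamil group, between 259262 and 935714 in the DMSO group, and 74614 and 71144 in the untreated group. Such 3' libraries give 1 fragment per transcript, so levels are CPM, counts brought to a common library size with trimmed means (TMM), and are not divided by length. A count of 3 reads was worth between 9.10 and 23.8 CPM in a benzamil library, between 3.12 and 11.0 CPM in a DMSO library, and 40.4 and 44.5 CPM in the untreated libraries. Members of low level could therefore hardly be seen in untreated skin. All 10 keratinocyte markers were tested, and their summed level was 56160 to 73460 CPM with benzamil, 38261 to 52185 CPM with DMSO and 25075 to 26904 CPM in untreated skin. Between benzamil and DMSO the sum moved mainly with Krt2, whose mean was 26636 against 8507 CPM. The list's median log2 fold change there was 0.09, and Krt5, Krt14, Krt1 and Sfn had values below 0. At an edgeR adjusted p under 0.05, 2 of the 10 were higher with benzamil (Krt2 and Krt15) and 0 lower. Among all tested genes 9.91% were higher and 12.1% lower. The skin of these libraries is bulk tissue, so fewer cells of a type and less RNA per cell cannot be told apart.

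The 5 lipoxygenase genes lie on chromosome 11 (mm10, GENCODE M21). Aloxe3 (chr11:69125896-69149115, plus strand), Alox12b (chr11:69156989-69169792, plus strand) and Alox8 (chr11:69183932-69197843, minus strand) are neighbours, 7.87 and 14.1 kb apart with 0 annotated genes between them. Alox12 (chr11:70241457-70255353, minus strand) and Alox12e (chr11:70315610-70322628, minus strand) form another pair, 60.3 kb apart, and 90 annotated genes lie between the groups. Ptges (chr2:30889471-30929863, minus strand) and Ptgs1 (chr2:36230426-36252272, plus strand) are on chromosome 2, and Ptgs2 (chr1:150100031-150108227, plus strand) is on chromosome 1. Being neighbours did not go with 1 shared call: Alox8 fell with benzamil over DMSO, while its neighbours Alox12b and Aloxe3 did not pass the test, and the difference between their responses was not tested.

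The promoters of the 4 members whose benzamil and DMSO libraries did not overlap are shown because they let the sequences at these start sites be set beside the levels. Among all tested genes, 24.5% had benzamil and DMSO groups that did not overlap. Ptgs2 is shown although it stayed under the filter and was not called (edgeR adjusted p = 0.0514 without the filter). They are RefSeq sequences on GRCm38.p6, from 250 bases before the start site to 50 bases after it, on the strand of the gene. Capitals mark a match to 1 of 5 motifs searched on both strands: AP-1 (TGANTCA), NF-kB (GGGA, any 4 bases, then CC), STAT (TTCNNNGAA), C/EBP (TTNNGCAA) and the TATA box with the letters TATAAA.
Alox8 (chr11:69197794-69198093, minus strand): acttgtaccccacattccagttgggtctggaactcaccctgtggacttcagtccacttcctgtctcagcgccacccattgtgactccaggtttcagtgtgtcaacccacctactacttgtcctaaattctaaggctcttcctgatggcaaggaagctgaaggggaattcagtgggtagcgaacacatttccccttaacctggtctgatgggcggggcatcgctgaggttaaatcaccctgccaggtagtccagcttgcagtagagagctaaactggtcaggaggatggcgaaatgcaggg
Ptges (chr2:30903248-30903547, minus strand): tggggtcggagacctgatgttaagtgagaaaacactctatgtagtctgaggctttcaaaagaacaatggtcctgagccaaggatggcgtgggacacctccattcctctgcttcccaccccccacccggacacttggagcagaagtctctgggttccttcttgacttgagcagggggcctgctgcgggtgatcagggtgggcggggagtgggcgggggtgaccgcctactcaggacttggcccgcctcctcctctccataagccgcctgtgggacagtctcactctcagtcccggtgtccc
Alox12e (chr11:70322481-70322780, minus strand): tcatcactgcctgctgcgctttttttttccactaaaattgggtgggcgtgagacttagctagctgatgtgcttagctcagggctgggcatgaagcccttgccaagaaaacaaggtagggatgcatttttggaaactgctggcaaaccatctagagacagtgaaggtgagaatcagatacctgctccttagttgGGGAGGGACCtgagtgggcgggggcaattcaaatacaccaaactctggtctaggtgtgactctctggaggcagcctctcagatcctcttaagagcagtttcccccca
Ptgs2 (chr1:150099781-150100080, plus strand): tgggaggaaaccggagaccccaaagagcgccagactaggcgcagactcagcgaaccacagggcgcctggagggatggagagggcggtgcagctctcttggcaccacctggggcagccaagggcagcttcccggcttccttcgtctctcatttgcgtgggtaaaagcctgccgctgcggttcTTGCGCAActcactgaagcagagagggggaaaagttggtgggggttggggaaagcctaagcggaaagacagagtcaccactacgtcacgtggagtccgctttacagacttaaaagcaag

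Of the 8 members, 7 had a promoter in the table and Aloxe3 had none. The Alox8 and Ptges windows held 0 matches to the 5 motifs, as did that of Ptgs1. The Ptges window lies inside the annotated interval of the gene, and the upstream end of that interval, at 30929863, was not searched. The Alox12e window held GGGAGGGACC, an NF-kB match, at positions -57 to -48 from the start site. Alox12b had an NF-kB match at -115 to -106 and Alox12 at -153 to -144. Ptgs2 held the C/EBP match TTGCGCAA at -69 to -62. Among all 32851 promoters of this length, 20.7% held the NF-kB letters, 10.8% the C/EBP letters, 7.81% the AP-1 letters, 8.30% the STAT letters and 13.6% the TATA letters, so such matches are common. No motif matched overlaps another. A match is a description of letters and not a binding site.

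With benzamil, 2 of the 6 tested members fell relative to DMSO (Alox8 and Ptges) and 1 rose (Alox12e) at an edgeR adjusted p under 0.05. Alox8 and Ptges passed the filter on low counts only through DMSO libraries, and Alox12e only through benzamil libraries. These 3 thus entered the test through the group where they were higher, and the counts and medians over the 6 members carry that choice. Without the filter, their edgeR adjusted p were 2.63e-09, 0.00295 and 0.0184. Among all 5245 tested genes, 12.1% were called lower and 9.91% higher in this comparison, and 22.0% in either direction. The median log2 fold change of the 6 tested members was -0.41, beside -0.01 over all tested genes. With imiquimod and DMSO over untreated skin, 1 of 6 rose (Alox8) and 0 fell, beside 9.93% of all tested genes called higher, 8.45% lower and 18.4% in either direction. The member median there was 1.42, beside 0.18 over all genes. At an unadjusted p under 0.05 edgeR gave 4 higher and 0 lower members in that comparison, and DESeq2 called 1 higher and 0 lower. Ribosomal RNA genes took 31.0 to 45.7% of the reads with benzamil, 22.1 to 28.8% with DMSO, and 34.2 and 38.6% in the untreated libraries, so that the treated groups did not overlap. With these genes left out before scaling, the benzamil over DMSO values were -3.48 for Alox8, -1.72 for Ptges and 1.38 for Alox12e, and all 3 calls held. These comparisons share the DMSO libraries, so their values are given side by side and not as 2 separate findings.

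**Figure D1:**
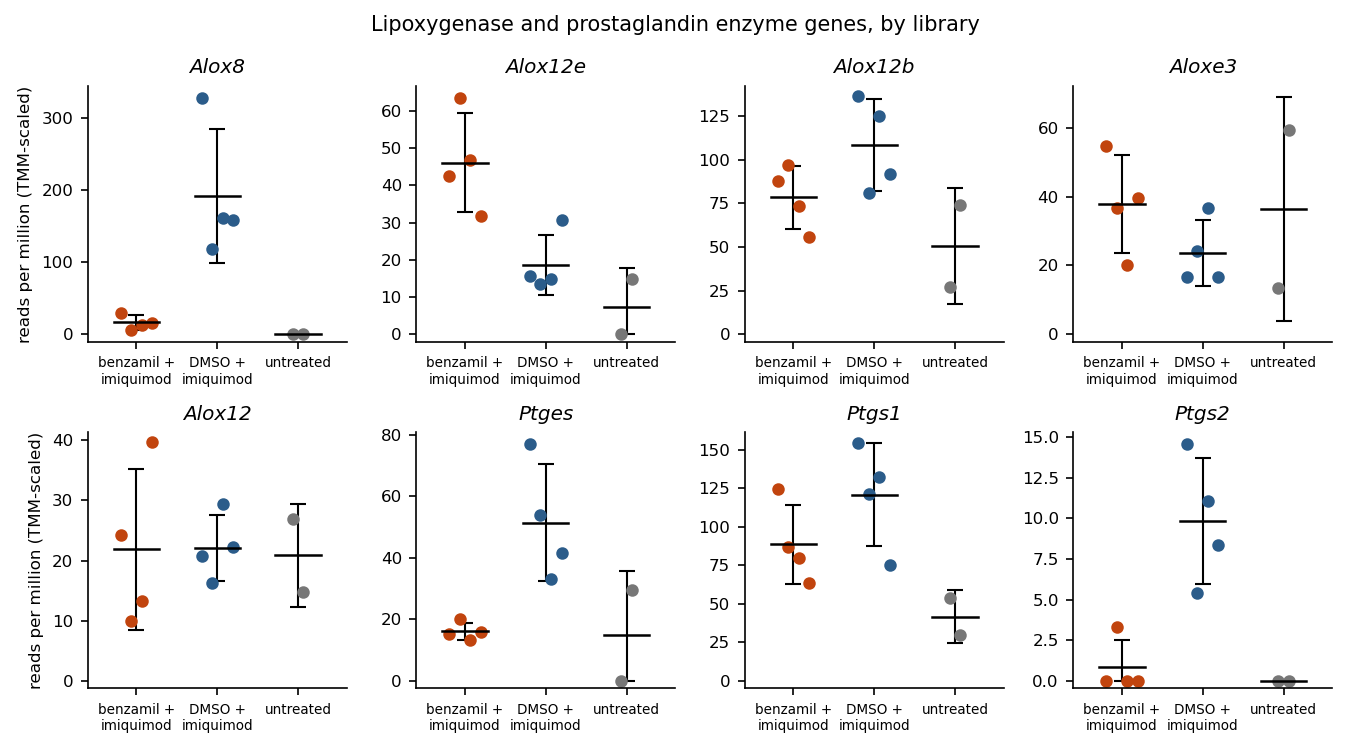
Level of each of the 8 genes in every library, in TMM-scaled CPM (vertical axis, a separate linear scale for each gene). Points are libraries (4 benzamil, 4 DMSO, 2 untreated), bars the group means and whiskers the SD. The benzamil and DMSO points do not overlap for Alox8, Alox12e, Ptges and Ptgs2, and do overlap for Alox12b, Aloxe3, Alox12 and Ptgs1.

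Alox8 had the largest fold change of the 6 tested members in benzamil over DMSO. It encodes the mouse lipoxygenase that is known for its induction in mouse skin by phorbol esters, and its human counterpart is ALOX15B. It had 10, 2, 2 and 2 reads in benzamil libraries 1 to 4, against 316, 44, 44 and 57 reads in DMSO libraries 1 to 4 and 0 and 0 reads in the untreated libraries. Every benzamil library lay below every DMSO library, and DMSO library 1 stood highest. As levels, the values were 30.3, 6.68, 13.3 and 15.9 CPM with benzamil, against 328, 119, 162 and 158 CPM with DMSO. The means were 16.6 ± 9.97 CPM with benzamil and 192 ± 93.1 CPM with DMSO (SD, n = 4 each). At the DMSO rate, 212 reads would have fallen on Alox8 in the benzamil libraries, which held 16.

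The log2 fold change of Alox8 in benzamil over DMSO was -3.48 ± 0.41 (SE), or 11.2-fold lower, with an edgeR adjusted p of 3.42e-06. By p it ranked 13 of 5245 genes, and its log2 fold change was the 15th lowest. Leaving out 1 library at a time gave between -4.18 and -3.02. The value of -4.18 came without benzamil library 1, which held 10 of the 16 benzamil reads, and that of -3.02 without DMSO library 1. The adjusted p stayed under 0.05 when any 1 library was left out.

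Over untreated skin, Alox8 rose in the DMSO group with an edgeR adjusted p of 0.000594. The untreated libraries held 0 reads where 33.3 would have fallen at the DMSO rate. The pooled DMSO level of 235 CPM was 11.1 times a floor of 3 reads over the untreated group, worth 21.2 CPM. Counting error alone put the lower 95% limit of the ratio to untreated skin at 8.98. The pooled level leaned on DMSO library 1, with 316 of 461 reads, and the lowest DMSO library stood at 119 CPM. Between benzamil and untreated skin no difference was detectable at this depth. The pooled benzamil level of 17.7 CPM lay under the untreated floor, and the edgeR adjusted p was 0.353.

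Alox12e moved the other way with benzamil. It encodes the epidermal-type lipoxygenase of the mouse, a close relative of the platelet-type enzyme. It had 14, 19, 7 and 4 reads in benzamil libraries 1 to 4, against 15, 5, 4 and 11 in DMSO libraries 1 to 4 and 0 and 1 in the untreated libraries. As levels these were 42.5, 63.4, 46.7 and 31.8 CPM with benzamil, against 15.6, 13.5, 14.7 and 30.5 CPM with DMSO. The groups did not overlap, but the lowest benzamil value of 31.8 CPM lay close above the highest DMSO value of 30.5 CPM. Among all tested genes, 24.5% had benzamil and DMSO groups that did not overlap.

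The mean level of Alox12e was 46.1 ± 13.2 CPM with benzamil and 18.6 ± 8.01 CPM with DMSO (SD, n = 4 each). The log2 fold change was 1.38 ± 0.41 (SE), with an edgeR adjusted p of 0.0159. The call rests on few reads and on single libraries: with the same genes tested, the log2 fold change was 1.25 (adjusted p = 0.065) with DMSO library 1 left out and 1.14 (0.096) with benzamil library 2 left out. Over untreated skin the log2 fold change of Alox12e was 1.31 ± 1.27 for DMSO (edgeR adjusted p = 0.498) and 2.69 ± 1.10 for benzamil (edgeR adjusted p = 0.169), so neither passed the test with 1 untreated read in all.

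Alox12b and Aloxe3, the pair that works on barrier lipids, did not pass the test in any of the 3 comparisons. Alox12b had levels of 88.0, 96.8, 73.4 and 55.6 CPM in benzamil libraries 1 to 4, against 136, 81.0, 125 and 91.6 CPM in DMSO libraries 1 to 4 and 26.9 and 74.2 CPM in the untreated libraries. The benzamil and DMSO groups overlapped, while both untreated values lay below all DMSO values. The log2 fold change was -0.42 ± 0.26 for benzamil over DMSO (edgeR adjusted p = 0.262, approximate 95% interval -0.94 to 0.10) and 1.15 ± 0.53 for DMSO over untreated (adjusted p = 0.13). In that comparison 48.0% of tested genes had groups that did not overlap.

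Aloxe3 had lower levels than Alox12b in every library. It stood at 54.6, 36.7, 20.01 and 39.7 CPM in benzamil libraries 1 to 4, against 16.6, 24.3, 36.8 and 16.7 CPM in DMSO libraries 1 to 4 and 13.5 and 59.3 CPM in the untreated libraries. The 3 groups overlapped, and the 2 untreated libraries spanned them all. Its log2 fold change was 0.87 ± 0.42 for benzamil over DMSO (edgeR adjusted p = 0.138) and -0.69 ± 0.80 for DMSO over untreated (adjusted p = 0.578). The sign of the untreated value was not stable: without untreated library 2 it was 0.78.

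Alox12, the platelet-type lipoxygenase gene, stayed under the filter, and its group means lay within 1 SD of each other. Its levels were 24.3, 10.0, 13.3 and 39.7 CPM in benzamil libraries 1 to 4, against 20.8, 16.2, 29.4 and 22.2 CPM in DMSO libraries 1 to 4 and 26.9 and 14.8 CPM in the untreated libraries. The untreated values came from 2 and 1 reads, under the worth of 3 reads there (40.4 and 44.5 CPM). Like means therefore do not show a steady level against untreated skin. The mean was 21.8 ± 13.4 CPM with benzamil and 22.2 ± 5.48 CPM with DMSO (SD, n = 4 each), and 20.9 ± 8.55 CPM in untreated skin (n = 2). Without the filter, edgeR gave a log2 fold change of -0.14 ± 0.47 for benzamil over DMSO (adjusted p = 0.893). Of 8 platelet marker genes, 1 was in both tables, at 0 to 18.2 CPM with benzamil, 5.195 to 14.7 CPM with DMSO and 0 to 13.5 CPM in untreated skin.

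The make-up of the lipoxygenase reads followed from these values. Alox8 held 8.38% of the 191 reads on the 5 genes in the benzamil group (Wilson 95% interval 5.22 to 13.2%), against 57.1% of 807 reads in the DMSO group (53.7 to 60.5%). By library its share was between 3.12 and 12.7% with benzamil and between 44.0 and 63.5% with DMSO. In untreated skin it held 0 of 16 reads, which allows a share of up to 18.75%. Alox12e held 23.0% of the lipoxygenase reads with benzamil and 4.34% with DMSO, and Alox12b held 39.8% with benzamil and 28.3% with DMSO. These shares compare the genes within a library and do not depend on the scaling between libraries. Intervals cover counting error only, since the collapsing of reads by molecular identifier is not stated.

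**Figure D2:**
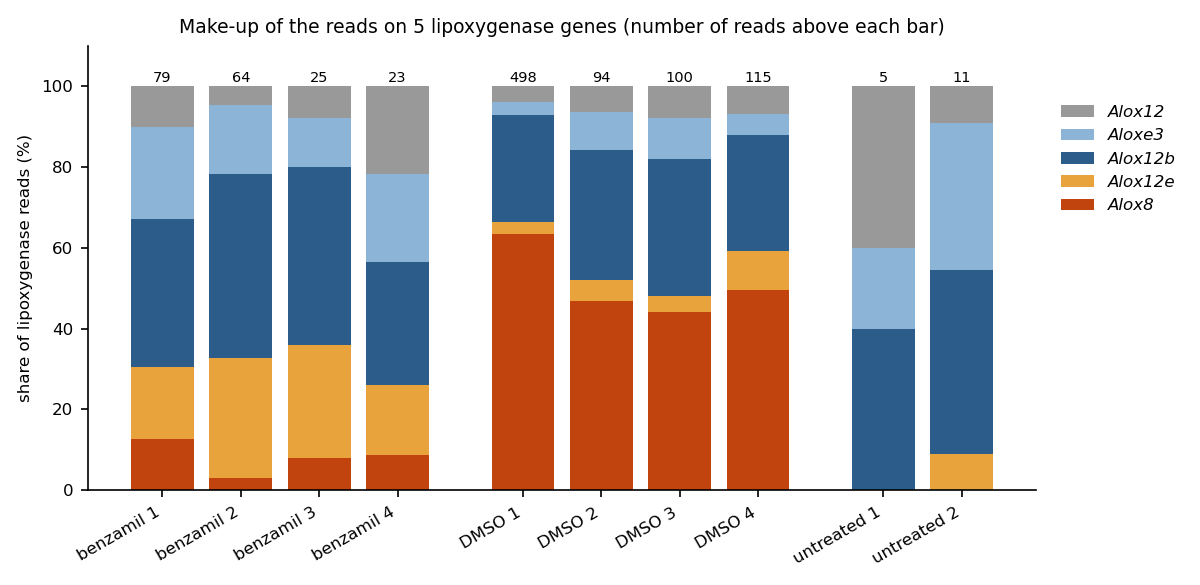
Share of the reads on the 5 lipoxygenase genes that fell on each gene, in percent, for each library (4 benzamil, 4 DMSO, 2 untreated), with the number of reads above each bar. Alox8 takes between 44.0 and 63.5% of every DMSO bar and at most 12.7% of a benzamil bar, and is absent from the 5 and 11 reads of the untreated bars.

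Among the prostaglandin genes, Ptges fell with benzamil and the cyclooxygenase genes did not pass the test. Ptges encodes the inducible microsomal prostaglandin E synthase. It had 5, 6, 2 and 2 reads in benzamil libraries 1 to 4, against 74, 20, 9 and 15 reads in DMSO libraries 1 to 4 and 0 and 2 in the untreated libraries. As levels these were 15.2, 20.03, 13.3 and 15.9 CPM with benzamil, against 76.9, 54.0, 33.1 and 41.6 CPM with DMSO. Every benzamil value lay below every DMSO value, and DMSO library 1 was again the highest.

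The mean level of Ptges was 16.1 ± 2.83 CPM with benzamil and 51.4 ± 19.0 CPM with DMSO (SD, n = 4 each). The log2 fold change was -1.72 ± 0.42 (SE), with an edgeR adjusted p of 0.00476. Without DMSO library 1 it was -1.37 and the adjusted p 0.0566, so that the call rests on that library. For DMSO over untreated the log2 fold change was 1.94 ± 0.89 (adjusted p = 0.125), where the untreated libraries held 2 reads and 8.51 would have fallen at the DMSO rate. The interval of Ptges in the annotation (mm10) also holds the pseudogene Gm13400.

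Ptgs1, the constitutive cyclooxygenase gene, had the highest mean level of the prostaglandin genes in each group. It stood at 124, 86.8, 80.1 and 63.5 CPM in benzamil libraries 1 to 4, against 155, 121.5, 132 and 75.0 CPM in DMSO libraries 1 to 4 and 53.8 and 29.7 CPM in the untreated libraries. Benzamil and DMSO overlapped, while the untreated values lay below both treated groups. Among all tested genes, groups did not overlap for 48.0% in DMSO over untreated and 32.4% in benzamil over untreated. The log2 fold change was -0.40 ± 0.26 for benzamil over DMSO (edgeR adjusted p = 0.286) and 1.54 ± 0.57 for DMSO over untreated (adjusted p = 0.0575). The value over untreated skin sat near the threshold and its call moved with the fit. DMSO library 4 was the only library whose removal brought the edgeR adjusted p under 0.05, to 0.0272. It was also under 0.05 by edgeR without the filter (0.0316) and by limma (0.0236). DESeq2 gave 0.115, and edgeR gave 0.194 with a block for replicate number and 0.625 after thinning to the smallest library. Ptgs1 overlaps the antisense gene Gm43621, and the use of strand in counting is not stated, so reads of the pair cannot be told apart.

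Ptgs2, the inducible cyclooxygenase gene, was close to the limit of detection. It had 0, 1, 0 and 0 reads in benzamil libraries 1 to 4, against 14, 2, 3 and 3 reads in DMSO libraries 1 to 4 and 0 and 0 in the untreated libraries. The single benzamil read compares with 10.1 expected at the DMSO rate. The DMSO level was 10.1 times the benzamil level by reads, with a counting interval of 1.64 to 418. The groups did not overlap, but Ptgs2 stayed under the filter, and edgeR without the filter gave -2.90 ± 1.02 (adjusted p = 0.0514). The untreated libraries held 0 reads where 1.59 would have fallen at the DMSO rate, so no fold over untreated skin is given. For DMSO over untreated, edgeR without the filter gave an adjusted p of 0.276, and limma on the deposited log2 values gave 0.88 with an adjusted p of 0.0142.

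**Figure D3:**
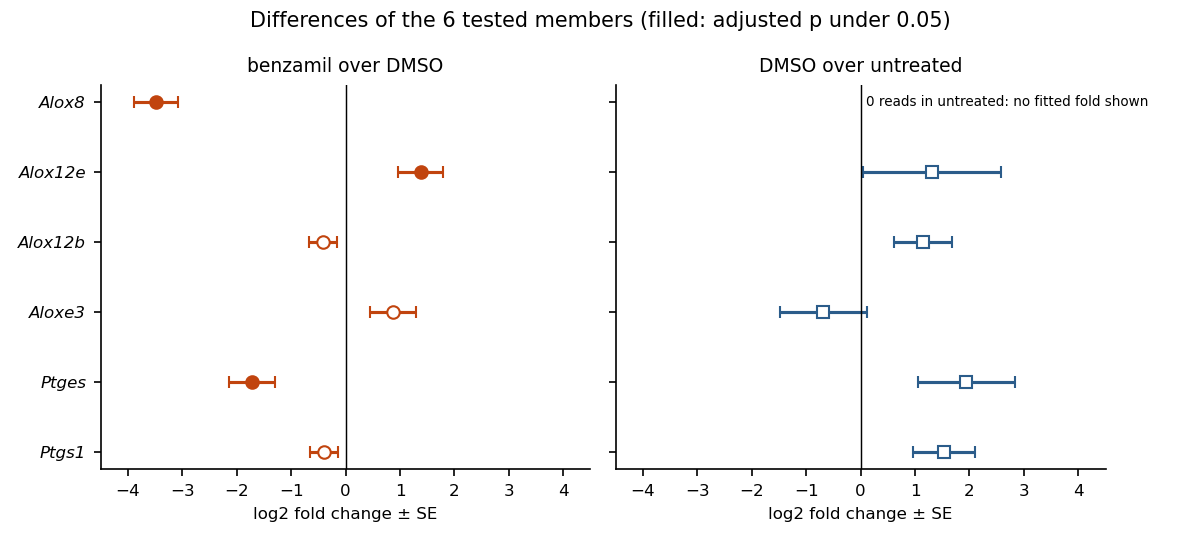
Log2 fold change with its SE for the 6 tested members (horizontal axis), for benzamil over DMSO on the left and DMSO over untreated on the right. Filled points had an edgeR adjusted p under 0.05: Alox8 at -3.48, Ptges at -1.72 and Alox12e at 1.38 on the left. Alox8 was also called on the right, where no fitted fold is drawn because the untreated libraries held 0 reads.

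Ordered by mean level, Alox8 stood first of the 8 genes with DMSO at 192 ± 93.1 CPM, followed by Ptgs1 at 121 ± 33.6 and Alox12b at 108.5 CPM. The order of Alox8 and Ptgs1 did not hold in every library: in DMSO library 2 they stood at 119 and 121.5 CPM. With benzamil, Ptgs1 at 88.7 and Alox12b at 78.4 CPM stood first, and Alox12e followed at 46.1 CPM. Ptgs1 and Alox12b did not differ beyond their spread in either group. Alox8 at 16.6 and Ptges at 16.1 CPM lay near the low end with benzamil, above Ptgs2 at 0.835 CPM. In untreated skin, Alox12b at 50.5 ± 33.4, Ptgs1 at 41.8 ± 17.1 and Aloxe3 at 36.4 ± 32.4 CPM (SD, n = 2) could not be ranked.

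For benzamil over untreated, 0 of the 6 tested members were called in either direction by edgeR or by DESeq2, and 1 had an unadjusted edgeR p under 0.05 (Alox12e, chosen for mention after its value was seen). In that comparison 2.44% of all tested genes were called higher, 1.56% lower and 4.00% in either direction. A missed threshold with 2 shallow untreated libraries does not show that the levels were alike. The log2 fold change was 1.13 for Ptgs1, 0.73 for Alox12b, 0.22 for Ptges and 0.17 for Aloxe3, with edgeR adjusted p of 0.304, 0.502, 0.933 and 0.923.

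The authors' deposited table for benzamil minus DMSO had adjusted p under 0.05 for the same 3 members: Alox8 with a log2 fold change of -2.61 (adjusted p = 2.01e-09), Ptges with -1.23 (0.0181) and Alox12e with 1.02 (0.041). Ptgs2 had -0.87 with an unadjusted p of 0.02945 and no adjusted p in the authors' deposited table. Their deposited table for untreated minus DMSO, coded with untreated skin on top, had Alox8 at -3.63 (adjusted p = 0.00122) and no other member under 0.05. For benzamil and DMSO those log2 fold changes are smaller in size than the edgeR values for each of the 3 called members.

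Of the other genes of the arachidonate pathway, 58 names were listed, 28 were in both tables and 18 were tested. With benzamil over DMSO, 4 rose and 4 fell, where 9.91% of all tested genes were called higher and 12.1% lower. The list's median log2 fold change was -0.25, beside -0.01 over all tested genes. The genes that rose were Cyp2b19, a keratinocyte cytochrome that makes epoxides of arachidonate, Cbr2, a carbonyl reductase, Pla2g4f, a cytosolic phospholipase, and Pla2g2f, a secreted phospholipase of the upper epidermis. Their log2 fold changes were 1.75 ± 0.33, 1.66 ± 0.41, 1.36 ± 0.32 and 1.15 ± 0.25, with edgeR adjusted p of 0.000525, 0.00492, 0.00379 and 0.00178. The genes that fell were Anxa1, which encodes annexin A1, a phospholipid-binding protein known as an inhibitor of phospholipase activity, Cbr3, a carbonyl reductase, Ptges3, a cytosolic prostaglandin E synthase that is also a chaperone partner, and Pla2g4e, a cytosolic phospholipase. Their log2 fold changes were -1.61 ± 0.28, -1.44 ± 0.41, -1.27 ± 0.28 and -0.99 ± 0.24, with edgeR adjusted p of 0.000199, 0.0139, 0.00231 and 0.0041. The call of Cbr3 was lost without DMSO library 1 (adjusted p = 0.0736) and without benzamil library 1 (0.107).

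Of the tested phospholipase genes, Pla2g4f and Pla2g2f rose and Pla2g4e fell with benzamil, where 9.91% of all tested genes were called higher and 12.1% lower. Pla2g4a stood at 0.03 ± 0.32 (edgeR adjusted p = 0.972). The levels of Pla2g4e were 84.9, 104, 107 and 191 CPM in benzamil libraries 1 to 4, against 205, 284, 213 and 208 CPM in DMSO libraries 1 to 4 and 13.5 and 14.8 CPM in the untreated libraries. Its 3 groups did not overlap, with benzamil between the others. The untreated values were 1 read each, under the worth of 3 reads there (40.4 and 44.5 CPM), so the untreated level is poorly known. Among all tested genes, groups did not overlap for 24.5% in benzamil over DMSO, 48.0% in DMSO over untreated and 32.4% in benzamil over untreated. Hpgd and Ptgr1, which break prostaglandins down, stood at -0.01 ± 0.28 and -0.20 ± 0.31 for benzamil over DMSO, and neither passed the test. Ltb4r1, a receptor of leukotriene B, stood at -1.09 ± 0.48 (edgeR adjusted p = 0.102).

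For DMSO over untreated, 3 of the 18 pathway genes rose and 2 fell, where 9.93% of all tested genes were called higher and 8.45% lower, with a list median of 1.47 beside 0.18 over all tested genes. Pla2g4e rose by 3.97 ± 0.65 on the log2 scale (edgeR adjusted p = 0.000135), Anxa1 by 2.39 ± 0.49 (0.0015) and Cyp4f39, a fatty acid hydroxylase of the acylceramide route, by 2.06 ± 0.73 (0.0493). The untreated libraries held 2 reads of Pla2g4e, 14 of Anxa1 and 3 of Cyp4f39 in all, so the size of these changes is uncertain. With the tested genes kept, the adjusted p of Anxa1 was 0.0659 with untreated library 1 left out. The call of Cyp4f39 lay at the threshold and was lost when any of the 4 DMSO libraries was left out, and its adjusted p was 0.33 without untreated library 1 and 0.105 by DESeq2. Cyp2b19 had a log2 fold change of -2.82 ± 0.43 (edgeR adjusted p = 7.05e-05) and Slco2a1, the prostaglandin transporter gene, one of -2.68 ± 0.52 (0.000786). For benzamil over untreated, Pla2g4e was higher (2.98 ± 0.74, edgeR adjusted p = 0.0208) and Slco2a1 lower (-2.36 ± 0.53, 0.0116), and each call was lost when either untreated library was left out. By DESeq2 the adjusted p of Pla2g4e there was 0.0811, and its value rests on the same 2 untreated reads.

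**Figure D4:**
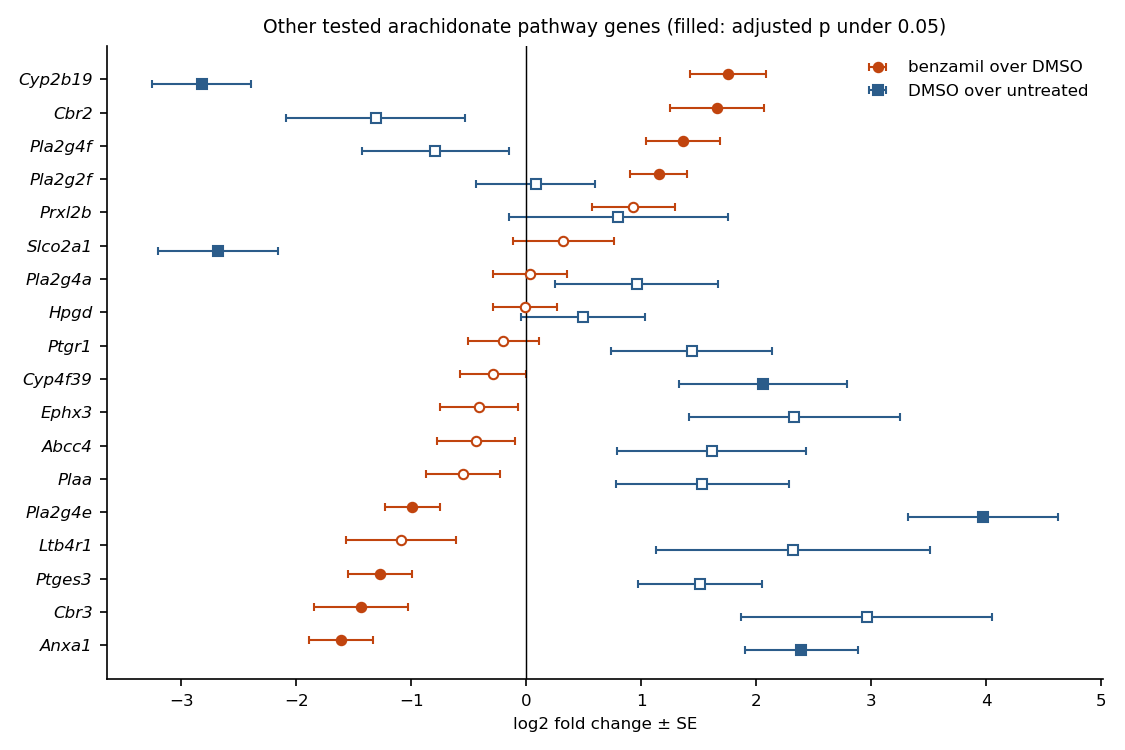
Log2 fold change with its SE for the 18 other tested genes of the arachidonate pathway (horizontal axis), with circles for benzamil over DMSO and squares for DMSO over untreated, filled where the edgeR adjusted p was under 0.05. Circles run from -1.61 for Anxa1 to 1.75 for Cyp2b19. Both sets share the DMSO libraries.

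Alox12b and Aloxe3 act in the acylceramide route together with 22 listed partner names, of which 21 were in both tables and 20 were tested. With benzamil over DMSO, 3 partners rose and 3 fell, where 9.91% of all tested genes were called higher and 12.1% lower. The median log2 fold change was -0.01, equal to that of all tested genes. Elovl4, which elongates the very long fatty acids of acylceramides, stood at 1.17 ± 0.26, Slc27a4, a fatty acid transporter, at 1.37 ± 0.24 and Acer1, a ceramidase, at 0.77 ± 0.24, with edgeR adjusted p of 0.00211, 0.000242 and 0.0229. The call of Acer1 was lost without benzamil library 1 (adjusted p = 0.0737) and without DMSO library 1, 2 or 4 (0.0682, 0.0704 and 0.0559), and with the tested genes kept also without benzamil library 2 (0.0526). It was lost as well by DESeq2 (0.70, adjusted p = 0.0724) and with library totals alone (0.51, 0.152). The lower partners were Tgm1, the transglutaminase that joins the cornified envelope, at -3.14 ± 0.55, Sptlc2, a subunit of the first enzyme of sphingolipid synthesis, at -1.44 ± 0.41, and Degs1, a ceramide desaturase, at -1.09 ± 0.21, with edgeR adjusted p of 0.000261, 0.0131 and 0.000589. With the tested genes kept, the adjusted p of Sptlc2 was 0.0511 without DMSO library 1. These partners are named because they passed the test, and so were chosen after their values were seen.

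Tgm1 had 2, 2, 0 and 1 reads in benzamil libraries 1 to 4, against 72, 16, 11 and 12 in DMSO libraries 1 to 4 and 1 and 0 in the untreated libraries. Its benzamil and DMSO groups did not overlap. For DMSO over untreated, 6 partners rose and 1 fell, where 9.93% of all tested genes were called higher and 8.45% lower. For benzamil over untreated 2 rose and 0 fell, where 2.44% of all tested genes were called higher and 1.56% lower. These 2 were Elovl4 and Abca12, a lipid transporter, at 1.31 ± 0.34 and 1.46 ± 0.40 (edgeR adjusted p = 0.0272 and 0.0374). At an unadjusted p under 0.05 edgeR gave 9 higher and 0 lower partners there, and DESeq2 called 2 higher and 0 lower. Both calls were lost without untreated library 2 (adjusted p = 0.207 and 0.252), that of Elovl4 also without benzamil library 3 or 4 (0.0542 and 0.0524), and that of Abca12 also without benzamil library 1, 2 or 3 (0.0543, 0.0554 and 0.0669). With library totals alone 0 of the 2 were called (adjusted p = 0.0746 and 0.0873). The one that fell with DMSO over untreated was Slc27a4 at -1.26 ± 0.36. The 6 that rose were Abhd5, Ugcg, Abca12, Sdr9c7, Cyp4f39 and Degs1, with log2 fold changes between 1.46 and 2.73. In that order the untreated libraries held 7, 2, 14, 2, 3 and 16 reads of them in all. Abhd5, Ugcg, Sdr9c7 and Cyp4f39 had 0 reads in 1 of the 2 untreated libraries, so their folds have no firm size. DESeq2 called 3 of these 6, with adjusted p of 0.125 for Ugcg, 0.105 for Cyp4f39 and 0.0656 for Sdr9c7. Without untreated library 2 the number of higher partners was 3, and without untreated library 1 the call of Slc27a4 was lost (adjusted p = 0.243).

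Markers of some other cell types moved with the same groups. For benzamil over DMSO, 0 of 1 tested macrophage genes and 0 of 1 tested T cell genes were called. Of the mast cell, platelet and endothelial lists 0 genes were tested. The summed level of the neutrophil list was 214 to 4249 CPM with benzamil, 11029 to 18324 CPM with DMSO and 44.5 to 215 CPM in untreated skin. Its 3 tested genes (S100a8, S100a9 and Cxcr2) fell with benzamil over DMSO, where 12.1% of all tested genes were called lower. S100a8 and S100a9 are also made by inflamed keratinocytes. The defining genes Mpo, Elane, Ly6g, Csf3r, Mmp8 and Ngp were not in both tables. The part of these cells in the Alox8 and Ptges differences was not tested. Of the sebaceous list 5 of 8 tested genes rose with benzamil over DMSO, and of the skeletal muscle list 6 of 8, beside 9.91% of all tested genes. Their part in the higher Alox12e level was not tested either. The fibroblast list summed to 525 to 1034 CPM with DMSO and 8261 to 18924 CPM in untreated skin. For DMSO over untreated 5 of its 5 tested genes were lower, beside 8.45% of all tested genes. The part of that difference in the comparisons with untreated skin was not tested.

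The genes whose log2 CPM followed a member most closely over the 10 libraries are given as a description. For Alox8 they were Rbms1, Lce3a and Slc7a11, with Pearson r of 0.985, 0.972 and 0.962. Alox12e was followed by Pou3f1, Plekhm1 and Map2 (0.971, 0.962 and 0.944), and Ptges by Cox6a1, Pabpc1 and Rrm2 (0.982, 0.975 and 0.973). For Alox12b they were Bpifc, 2310046K23Rik and Ccny (0.967, 0.967 and 0.966), for Aloxe3 Rab7, Naxe and Ehd2 (0.944, 0.941 and 0.878), and for Ptgs1 Reep3, Tmem79 and Atp6v1h (0.951, 0.941 and 0.941). Among the members themselves, r was 0.842 for Alox12b with Ptges, 0.771 for Alox8 with Ptges, 0.060 for Alox8 with Alox12e and 0.214 for Alox12b with Aloxe3. The points share the group differences and the depth of each library, and the untreated libraries are often at or near 0 reads.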

How the data were processed

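RNA of 10 mouse skin libraries was measured with a 3' mRNA kit with molecular identifiers from 500 ng of RNA, per the labels. STAR, featureCounts, DESeq2 and mm10 are named in the submitters' processing notes, without versions, which are not given in the labels. The authors deposited 2 tables of variance-stabilised log2 values (10653 and 9820 genes), each normalized on its own. The authors' DESeq2 results were deposited too, with a mean signal per gene, log2 fold changes, Wald scores, and p-values before and after adjustment. A deposited table of counts per gene holds 61533 human and 0 mouse identifiers and was used in no comparison.

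Reads were recovered by inverting the transform: 100% of values came out whole within 0.001 reads, and 39116 of 39116 DMSO values were equal in both tables. The 9779 genes in both tables were tested with edgeR 4.0.16 (quasi-likelihood, TMM, filterByExpr with a count minimum of 10, 1 fit of 10 libraries, common biological coefficient of variation 0.195) in R 4.3.3, and genes were called where the p adjusted by Benjamini-Hochberg over all 5245 tested genes was under 0.05. The design named this test for the recovered reads although the deposited unit is log2; limma 3.58.1 on the deposited log2 values and DESeq2 1.42.0 were alternatives. An SE is the log2 fold change over the root of F. CPM are TMM-scaled. No duplicate library was found: within groups, reads differed beyond sampling noise, with chi-square per degree of freedom of 1.93 to 6.87.

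The members and lists were chosen with earlier results of these data known. All members are named, and of the pathway list the genes called in any comparison, up to 12; 3 genes of like pattern are named for each tested member. The depth of 71144 to 935714 reads a library limits the precision of every low count. Gene positions come from GENCODE M21, matched by identifier without version.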

Additional observations from a re-analysis of the deposited data

Results flagged for a closer look

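Within a group of 4 libraries, a value was looked at again when its gap to the nearest other value exceeded Dixon's 95% critical share of the group's range. Of 16 groups (8 genes, benzamil and DMSO) 2 held such a value. Chance gives about 1 in 20 where values are not tied. The level of Alox12e in DMSO library 4 was 30.5 CPM, from 11 reads, while the other DMSO libraries lay between 13.5 and 15.6 CPM. Without that library the log2 fold change of Alox12e for benzamil over DMSO was 1.66. The level of Ptgs2 in benzamil library 2 was 3.34 CPM, from 1 read, while the other benzamil libraries had 0 reads. With 3 values tied at 0, any single read meets this criterion.

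The deposited count table with human identifiers, which entered no comparison, gave 48 reads on human PTGS1 over the DMSO libraries, above 0 in the untreated ones. The benzamil libraries held 21 reads there. These totals stand beside 270713 reads on all human genes with DMSO, 119375 with benzamil and 19146 in untreated libraries. Human ALOX12B had 1 read with benzamil, 3 with DMSO and 0 in untreated libraries, and human ALOX15B and PTGES had 0 in each group.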

How the results depend on the processing

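Alox8 was lower with benzamil over DMSO and higher with DMSO over untreated, with adjusted p under 0.05, under every alternative run except thinning of all libraries to 71144 reads (adjusted p = 0.326, at -3.11, and 0.202; no fold is given over the 0 untreated reads). With thinning, 3 of the 8 members passed the filter (Alox12b, Alox8 and Ptgs1) and 0 of these were called, while Alox12e and Ptges were not tested. Thinning left 7 higher and 8 lower genes called in benzamil over DMSO. For benzamil over DMSO, 1 member was called higher, with 0 to 1 when a library was left out, and 2 lower, with 1 to 2. limma on the deposited log2 values called 3 lower (Ptgs2 added, -0.70, adjusted p = 0.0411), and gave -2.0 for Alox8, -0.74 for Ptges and 0.58 for Alox12e on a scale that compresses low genes. For DMSO over untreated, 1 was called higher, with 1 to 2 when a library was left out, 3 by limma (Ptgs1 1.03 and Ptgs2 0.88 added) and 2 without the filter (Ptgs1 1.77, adjusted p = 0.0316). When the filter was repeated without a library, Alox12e fell below it in 5 of 10 fits.

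The member values that changed sign had not been called. Ptgs1 in benzamil over DMSO was 0.04 after thinning. Leaving out a library, Aloxe3 ranged from -1.44 to 0.78 and Alox12 from -0.21 to 0.62 in DMSO over untreated. In benzamil over untreated, Aloxe3 ranged from -0.56 to 1.64, Alox12 from -0.32 to 0.52 and Ptges from -0.83 to 5.46 (this upper end is fitted against 0 reads in the remaining untreated library and measures no fold), and DESeq2 gave -0.08 for Alox12 and -0.86 for Ptgs2. Among the partners, Degs1 in benzamil over DMSO was 0.05 after thinning. The cause was not tested. Scaling by library totals alone moved the median of all genes by -0.26 in benzamil over DMSO, with 248 higher and 1009 lower genes against 520 and 635; the 3 member calls held there (Alox8 -3.73, Ptges -1.97, Alox12e 1.13 with adjusted p 0.0499).

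Counts over all genes also moved with the tool. DESeq2 gave 327 higher genes in benzamil over DMSO and 316 in DMSO over untreated. limma gave 2369 higher in DMSO over untreated, against 521 by edgeR, and thinning 26 higher and 27 lower. For benzamil over untreated, 128 higher and 82 lower genes became 63 higher with library totals, 200 higher without the filter, and 13 higher and 7 lower after thinning. Leaving out a library gave 291 to 632 higher and 356 to 799 lower in benzamil over DMSO, lowest without DMSO library 1, and 225 to 532 and 208 to 448 in DMSO over untreated, lowest without untreated library 1.

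No clear pairing by replicate number was seen, and this check cannot exclude one. Same-numbered benzamil and DMSO libraries correlated at 0.069, 0.0007, 0.041 and 0.068 in their deviations, and 2 of 4 correlated best with their own number. With the replicate block, Alox8 was -3.51, Ptges -1.72 and Alox12e 1.41 in benzamil over DMSO, with 565 higher and 634 lower genes. In DMSO over untreated Alox8 kept its call (adjusted p = 0.042), with 45 and 53 genes, and in benzamil over untreated 77 and 61 genes were called.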
